A study of Mus musculus with 6 samples.

Results

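Glutamate and GABA receptor genes were followed in RNA from 6 mouse neurosphere cultures, which are floating spheres of neural stem and progenitor cells. The members are all genes whose symbol names a subunit of an AMPA, kainate, delta or NMDA receptor, a metabotropic glutamate receptor, a GABA-A receptor (rho subunits included) or a GABA-B receptor. They numbered 40 of the 17551 genes in the count table, 24 for glutamate and 16 for GABA. They were chosen by name and not by a cut on their values, with earlier results of these data known. The 3 G328V libraries carry the genotype label ACVR1 G328V, a glycine-to-valine form of the bone morphogenetic protein receptor Acvr1, and the 3 WT libraries the label ACVR1 WT. All cultures share the C57BL/6 strain background and a DMEM/F12 medium with N2, B27, EGF and FGF. The series design describes mutant and wild-type neurospheres with 3 biological replicates each. How and where in the genome G328V was introduced, and which animals gave the cultures, was not stated in the labels. Values across a group are given in the order of replicates 1, 2 and 3 for G328V and 1, 3 and 70A for WT, and log2 differences are G328V minus WT. The comparison asked which genes differ between neurospheres labelled G328V and WT.

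Ionotropic glutamate receptors are cation channels built from several subunits. AMPA and kainate receptors carry fast excitation, while NMDA receptors need the GluN1 subunit, glutamate and a co-agonist. Metabotropic glutamate receptors and GABA-B receptors signal through G proteins, and GABA-A receptors are chloride channels assembled from alpha, beta and mostly gamma or delta subunits. Neural progenitors and oligodendrocyte precursors are known to carry some of these receptors before synapses form, and both transmitters are known to affect their division.

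The depth of the libraries was 115953495 to 191115532 gene counts. At that depth 3 counts are 0.0163 to 0.0249 CPM (read counts scaled to the library total and trimmed-mean factors), and such floors cover counting error only. The neural stem markers Nes, Sox2 and Vim were present in every library, at 91.2 to 963, 134 to 237 and 1718 to 3189 CPM. Others of the 10 listed were uneven. Fabp7 measured 1313, 0.182 and 0.575 CPM across WT, and Msi1 40.6, 0.716 and 1.22 CPM. Of the 10, 1 had groups without overlap higher in G328V and 1 lower, beside 5.25% and 4.45% of all genes tested. Prom1 was higher, at 133, 288 and 190 CPM across G328V against 68.8, 10.2 and 7.92 CPM across WT. Sox9 was lower, at 33.2, 80.1 and 43.0 CPM across G328V against 109, 151 and 140 CPM across WT. The adjusted p by edgeR was 0.997 for both. The summed level of the 10 genes was 2461 to 3906 CPM in G328V and 2548 to 6082 CPM in WT. Neuron markers (11 measured) summed to 30.7 to 383 CPM in G328V and 93.7 to 311 CPM in WT, with Rbfox3, a marker of mature neurons, at 0 counts in 4 libraries and at most 1.17 CPM. Microglia markers (5 measured) summed to at most 2.37 CPM. Astrocyte markers summed to 78.1 to 163 CPM in G328V and 37.2 to 128 CPM in WT. Endothelial markers summed to 37.2 to 97.9 and 8.15 to 67.7 CPM in the same order. Fibroblast markers summed to 1.11 to 122 and 6.22 to 506 CPM, the last value in WT replicate 70A. Most of the highest endothelial sum was Flt1, at 93.1 CPM in G328V replicate 2. Most of the highest fibroblast sum was Col3a1, at 455 CPM in WT replicate 70A. Acvr1 was higher in every G328V library (244, 250.1 and 650.1 CPM) than in WT (42.45, 100.0 and 90.7 CPM), and gene counts do not tell the mutant from the wild-type form. Xist, which coats the inactive X chromosome, ranged from 444 to 795 CPM in G328V and did not exceed 1.18 CPM in WT, so sex-linked expression and the genotype label cannot be told apart in any comparison below. In bulk RNA, fewer cells of a type and less RNA per cell cannot be told apart either.

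Receptor genes were sparse, and libraries of 1 group differed widely. The 40 genes summed to 223, 275 and 31.0 CPM in G328V replicates 1, 2 and 3 and to 387, 16.1 and 40.8 CPM in WT replicates 1, 3 and 70A. The high libraries were thus G328V replicates 1 and 2 and WT replicate 1, and the groups overlapped. At least 10 counts were found for 32, 22 and 13 of the 40 genes in the G328V libraries and for 34, 12 and 22 in the WT libraries, in the same order. WT replicate 3, the most deeply sequenced library, had the fewest. Only 8 members (20%) had at least 10 counts in all 6 libraries, against 67.5% of all genes in the table. In 9 members (22.5%) a single library held at least 90% of the CPM summed over libraries, which was so for 9.73% of all genes.

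**Figure D1:**
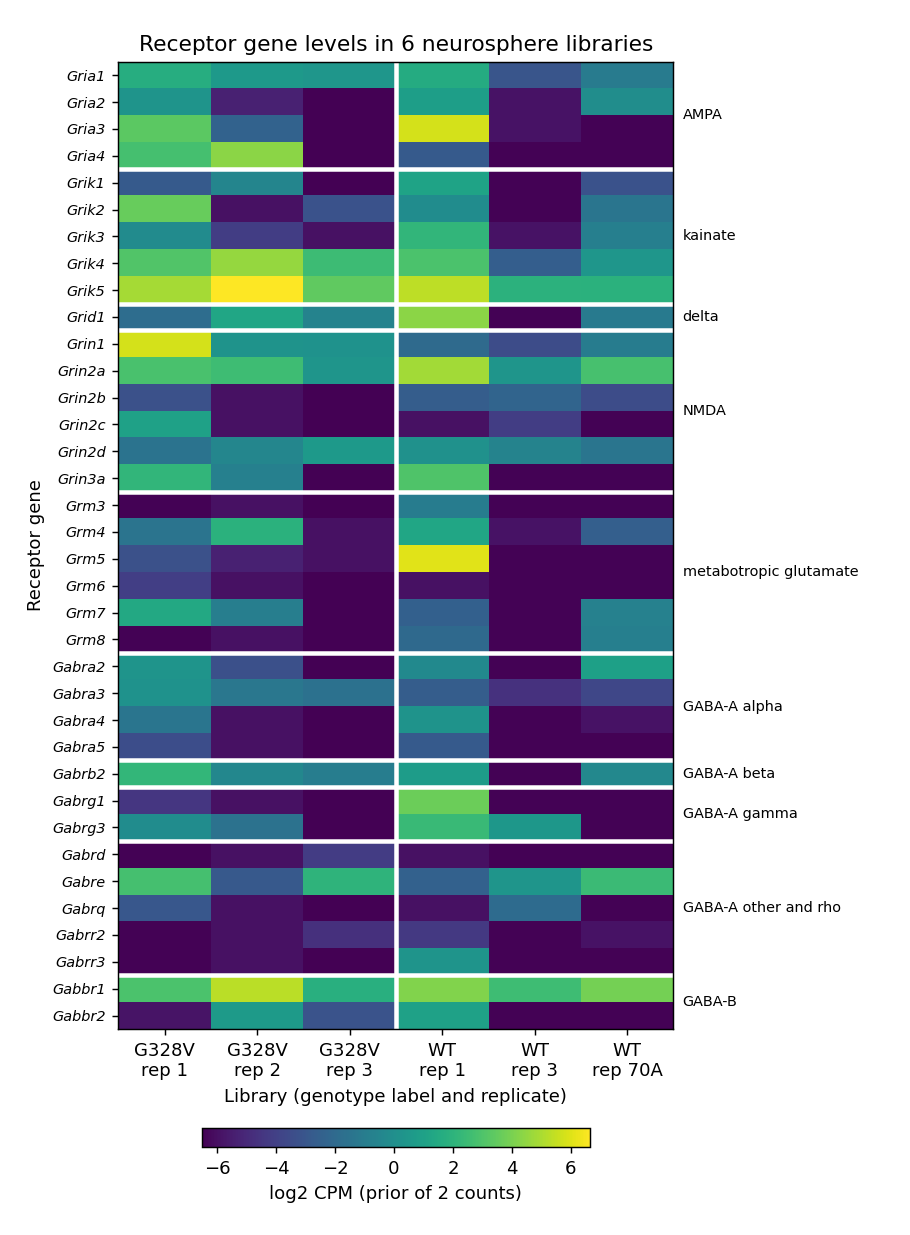
Level of 36 receptor genes (rows, grouped by receptor class) in the 6 libraries (columns), as log2 CPM with a prior of 2 counts, from dark (low) to yellow (high). Grik5 and Gabbr1 are seen in every library, Grm5 is bright in WT replicate 1 alone and Grin1 in G328V replicate 1 alone, and G328V replicate 3 and WT replicate 3 are dark for most genes.

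The receptor gene with the highest mean level per kilobase of exon was a kainate receptor gene, Grik5. Grik5 and Grik4 encode the high-affinity subunits GluK5 and GluK4, which form channels together with the subunits from Grik1 to Grik3. Grik5 measured 29.0, 100.4 and 10.7 CPM across G328V against 41.0, 3.77 and 3.72 CPM across WT. All G328V libraries lay above WT replicates 3 and 70A, and WT replicate 1 lay above G328V replicates 1 and 3, so the groups overlapped. The log2 difference was 1.53 (SE, the standard error, 1.24), with an unadjusted p of 0.263 by edgeR's quasi-likelihood test. Per kilobase, Grik5 averaged 6.08 CPM over the 6 libraries, the first of the 40 members. Grik4 measured 8.32, 23.9 and 5.77 CPM across G328V against 7.65, 0.153 and 1.30 CPM across WT. Like Grik5 it was highest in G328V replicate 2 and lowest in WT replicates 3 and 70A, but G328V replicate 1 and not WT replicate 1 came second. Its log2 difference was 2.06 (SE 1.36). Without WT replicate 1 the differences of Grik5 and Grik4 were 3.61 and 4.08 (edgeR adjusted p = 0.649 and 0.673). With DESeq2 and without WT replicate 1, both were called higher (adjusted p = 0.00705 and 0.00792). That fit was chosen after the data were seen. It called 727 genes, and 2100 of the 17038 genes it tested had an unadjusted p under 0.05. Over all 6 libraries DESeq2 gave an adjusted p of 0.917 and 0.872. Without G328V replicate 2 the log2 differences of Grik5 and Grik4 by edgeR were 0.29 and 1.21.

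The genes of the partner subunits varied from library to library. Grik2 reached 12.1 CPM in G328V replicate 1 and stayed within 0.910 CPM elsewhere. Grik1 and Grik3 were highest in WT replicate 1, at 2.19 and 4.34 CPM, and at most 0.681 and 0.874 CPM in the other libraries. WT replicate 3 had 664 counts of Grik5, 0 of Grik1 and Grik2 and 1 of Grik3.

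NMDA receptor genes differed most in Grin1, which encodes the obligatory subunit GluN1. Grin1 measured 55.8, 1.19 and 1.15 CPM across G328V against 0.236, 0.0796 and 0.494 CPM across WT. Every G328V library was above every WT library, but G328V replicate 1 alone held most of the signal. The log2 difference was 6.16 (SE 1.98), the only one among the 27 members tested with an unadjusted p under 0.05 (edgeR's unadjusted p of 0.0201, adjusted p = 0.997 over 14643 genes, 0.729 to 1.0 over the alternatives). That is 1 of 27 members, higher in G328V. Of all genes tested, 4.06% had such a p, 1.88% with a higher and 2.17% with a lower level in G328V. Without G328V replicate 1 the difference was 2.11 (unadjusted p = 0.184). G328V replicate 1 also had the highest summed level of neuron markers (383 CPM) and of neural crest and Schwann cell markers (293 CPM, 7 genes, with Sox10 at 65.2 CPM). The neuron sum came mostly from Nefl and Nefm, at 220 and 115 CPM. Nefm and Snap25 were highest in this library, but Tubb3, Dcx, Syn1, Elavl3 and Elavl4 were highest in WT replicate 1. The part of these markers in the Grin1 level was not tested. The antisense gene Grin1os shares 13.5% of the exon bases of Grin1, and whether counting used the strand was not stated, so reads of the pair cannot be told apart.

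Grin1 lies on chromosome 2 from 25291181 to 25319187 (GRCm38, minus strand). Gabra3, described with the GABA-A genes, lies on the X chromosome from 72432681 to 72656848 (minus strand). These 2 were the only tested members whose groups did not overlap, and Grik5, on chromosome 7 from 25009849 to 25072346 (minus strand), was the member with the highest level per kilobase. The 250 bases before the start of each are printed to show how unlike these regions are, with CG pairs in capitals (RefSeq, GRCm38.p6, minus strand, the farther upstream of 2 starts for Gabra3, at chr2:25319188-25319437, chrX:72656920-72657169 and chr7:25072370-25072619).
Grin1: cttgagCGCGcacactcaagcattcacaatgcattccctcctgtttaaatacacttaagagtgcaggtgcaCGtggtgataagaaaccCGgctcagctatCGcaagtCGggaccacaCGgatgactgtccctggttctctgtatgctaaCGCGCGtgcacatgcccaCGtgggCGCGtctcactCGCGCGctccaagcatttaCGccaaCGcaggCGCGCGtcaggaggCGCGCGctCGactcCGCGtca
Gabra3: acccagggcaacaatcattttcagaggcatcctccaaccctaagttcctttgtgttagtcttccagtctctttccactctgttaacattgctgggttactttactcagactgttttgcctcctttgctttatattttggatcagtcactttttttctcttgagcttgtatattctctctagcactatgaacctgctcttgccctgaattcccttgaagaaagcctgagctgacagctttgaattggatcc
Grik5: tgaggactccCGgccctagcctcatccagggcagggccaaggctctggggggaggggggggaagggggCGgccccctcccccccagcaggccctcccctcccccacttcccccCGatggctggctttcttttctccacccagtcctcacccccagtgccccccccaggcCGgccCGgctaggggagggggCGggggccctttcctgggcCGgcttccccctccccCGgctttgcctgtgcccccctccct
The Grin1 sequence holds 27 CG pairs, that of Gabra3 holds 0 and that of Grik5 holds 8 at a GC content of 75.2%. A promoter was matched for 26 of the 40 members (32 sequences, of which Gabra3 has 2), with a median of 9 CG pairs and a range of 0 to 42, beside a median of 6 over all 32851 promoters. The element GGCGCC, a palindrome bound by BMP-activated SMAD proteins, stood in 7 of the 32 (21.9%), those of Gabbr1, Gabbr2, Grik2, Grik3, Grik4, Grm3 and Grm8. It stood in 9.59% of all promoters of that length. CAGCTG, an E-box, and TGACGTCA, the cyclic AMP response element, were in 0 of the 32 and in 13% and 1.55% of all promoters. These 3 motifs are palindromes, so both strands were covered.

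The GluN2 subunit gene Grin2a, whose product sets the kinetics of the channel, was found in every library. It measured 7.20, 5.82 and 1.25 CPM across G328V against 28.2, 1.28 and 6.98 CPM across WT. WT replicate 1 was the highest, and the rest of both groups shared one range. The log2 difference was -1.36 (SE 1.19), and 0.18 without WT replicate 1. In the WT libraries Grin2a exceeded Grin1 also per kilobase, at 1.57 against 0.0243 CPM in replicate 1. Grin3a, a modulatory subunit, was at 4.41 and 8.23 CPM in G328V replicate 1 and WT replicate 1 and at most 0.565 CPM elsewhere. Grin2c reached 1.99 CPM in G328V replicate 1 and stayed within 0.0455 CPM elsewhere. Grin2b, the subunit typical of the young brain, did not exceed 0.193 CPM, and Grin2d stayed between 0.344 and 1.51 CPM in all 6.

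Apart from Gria1, the AMPA receptor genes were each carried by 1 to 3 libraries. Gria3 (GluA3; X chromosome) measured 10.2, 0.174 and 0 CPM across G328V against 55.6, 0.00568 and 0 CPM across WT. Thus 1 library of each group held nearly all of its counts, and the log2 difference of -2.42 had an SE of 3.52. Gria4 (GluA4) measured 6.88, 20.6 and 0 CPM across G328V against 0.130, 0 and 0 CPM across WT. It was high in 2 G328V libraries, absent from the counts of the other one as of 2 WT libraries, and its log2 difference was 7.73 (SE 3.43, unadjusted p = 0.0637). Gria1 (GluA1) was the most even of the 4, from 0.108 CPM in WT replicate 3 to 3.18 CPM in G328V replicate 1. Gria2, whose product makes AMPA channels impermeable to calcium after RNA editing, did not exceed 1.81 CPM and had 0 or 1 count in 3 libraries.

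Delta receptors bind cerebellins rather than acting as typical glutamate-gated channels. Grid1, which encodes GluD1, measured 0.274, 2.43 and 0.631 CPM across G328V against 20.2, 0 and 0.448 CPM across WT. It was high in WT replicate 1 alone, and the groups overlapped. The log2 difference was -2.63 (SE 2.46) and turned to 2.27 without WT replicate 1.

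Among metabotropic glutamate receptor genes, Grm5 stood apart. Grm5 encodes mGluR5, which couples to phospholipase C. It had 16, 1 and 1 counts across G328V against 8309, 0 and 0 across WT, so WT replicate 1, at 67.5 CPM, held nearly all of it. The filter on low counts therefore left Grm5 out. With no filter its log2 difference was -9.25 (SE 4.17, edgeR unadjusted p = 0.0660, adjusted p = 0.849), and that size rests on 1 library. Grm4, a receptor that lowers cyclic AMP, measured 0.350, 3.64 and 0.00544 CPM across G328V against 2.40, 0.00568 and 0.161 CPM across WT. It was highest in G328V replicate 2 and WT replicate 1, with a log2 difference of 0.64 (SE 2.37). Grm3 had 60 counts in WT replicate 1 and 0 in every other library. Over the groups that is at least 20.1-fold higher in WT against a floor of 3 counts over the G328V group, and it rests on WT replicate 1 alone. The Cufflinks estimates hold 2 fragments of Grm3 in G328V replicate 2. Such limits take counts as independent, while HTSeq held a median of 1.954 to 1.965 counts per fragment, so in fragments they are smaller. Grm8 had 28 and 95 counts in WT replicates 1 and 70A and 0 elsewhere, which is at least 41.2-fold higher in WT against the same floor. That limit was 14.8 without WT replicate 70A and 65.6 without WT replicate 3, which like the G328V libraries had 0 counts. Grm7 reached 2.65 CPM in G328V replicate 1, and Grm6 did not exceed 0.0466 CPM.

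Beta subunits form part of the GABA site of GABA-A receptors. Gabrb2, for the beta2 subunit, measured 4.54, 0.731 and 0.506 CPM across G328V against 1.69, 0 and 0.770 CPM across WT. Its groups overlapped, with a log2 difference of 1.23 (SE 2.00).

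The alpha subunit genes, whose products form part of the GABA and benzodiazepine sites, were low throughout. Gabra2 measured 1.21, 0.0831 and 0 CPM across G328V against 0.812, 0 and 1.94 CPM across WT. It was at 0 counts in G328V replicate 3 and WT replicate 3, and its log2 difference was -1.09 (SE 2.59). Gabra3 measured 1.14, 0.390 and 0.315 CPM across G328V against 0.146, 0.0284 and 0.0632 CPM across WT. Its G328V libraries all lay above its WT libraries, with a log2 difference of 2.95 (SE 1.29, unadjusted p = 0.0601, adjusted p = 0.997 by edgeR, 0.265 to 1.0 over the alternatives planned). Groups that did not overlap were found in 2 of the 27 members tested, Grin1 and Gabra3, both higher in G328V, while 9.7% of all genes tested had such groups in either direction and 5.25% had them higher in G328V. Gabra3 is X-linked, and Xist separated the libraries in the same way. With DESeq2 and without WT replicate 1 Gabra3 was called higher (adjusted p = 0.0451). That is the fit chosen after the data were seen, which called 727 genes. Gabra4 reached 1.19 CPM in WT replicate 1, and Gabra5 did not exceed 0.130 CPM.

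Gamma subunits help to place GABA-A receptors at synapses. Gabrg1 had 6, 0 and 0 counts across G328V against 1602, 0 and 0 across WT, and so was carried by WT replicate 1 at 13.0 CPM. Gabrg3 measured 0.903, 0.324 and 0 CPM across G328V against 5.32, 1.36 and 0 CPM across WT, with a log2 difference of -2.44 (SE 2.64). G328V replicate 3 and WT replicate 70A thus had 0 counts of both gamma genes measured. Gabre, for the epsilon subunit, measured 6.80, 0.125 and 4.08 CPM across G328V against 0.171, 1.26 and 5.57 CPM across WT. It was highest in G328V replicate 1 and lowest in G328V replicate 2 and WT replicate 1, and by level per kilobase it was the third gene in G328V replicate 3 and the second in WT replicate 70A. Gabrr3, a rho subunit gene, had 148 counts in WT replicate 1 and 0 in the other 5 libraries. Over the groups that is at least 49.6-fold higher in WT against the same floor of 3 counts over the group, and it rests on WT replicate 1 alone. Gabrd, Gabrq and Gabrr2 did not exceed 0.250 CPM.

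Many GABA-A genes lie side by side in the genome, and such neighbours were not equally expressed. On chromosome 7, Gabra5 (57407672 to 57510059) was at 0.130 CPM in WT replicate 1 and Gabrg3 (56716465 to 57387188) at 5.32 CPM. On chromosome 5, Gabrg1 (70751047 to 70842617) was at 13.0 CPM in that library and Gabra2 (70957597 to 71095849) at 0.812 CPM. In WT replicate 70A Gabra2 was at 1.94 CPM and Gabrg1 had 0 counts. On the X chromosome, Gabre (72255999 to 72274803) and Gabra3 reached their highest levels in the same library, G328V replicate 1, but only Gabra3 had groups that did not overlap.

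GABA-B receptors need the products of both Gabbr1 and Gabbr2. Gabbr1 measured 7.68, 39.4 and 3.45 CPM across G328V against 17.6, 5.78 and 14.9 CPM across WT. Its spread within groups (SD of log2 CPM) was 1.40, small for these genes, and its groups overlapped, with a log2 difference of 0.40 (SE 0.96). Gabbr2 measured 0.00583, 1.58 and 0.103 CPM across G328V against 2.00, 0 and 0 CPM across WT. WT replicates 3 and 70A had 1018 and 2593 counts of Gabbr1 and 0 of Gabbr2. The log2 difference of Gabbr2 was -0.24 (SE 2.90).

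**Figure D2:**
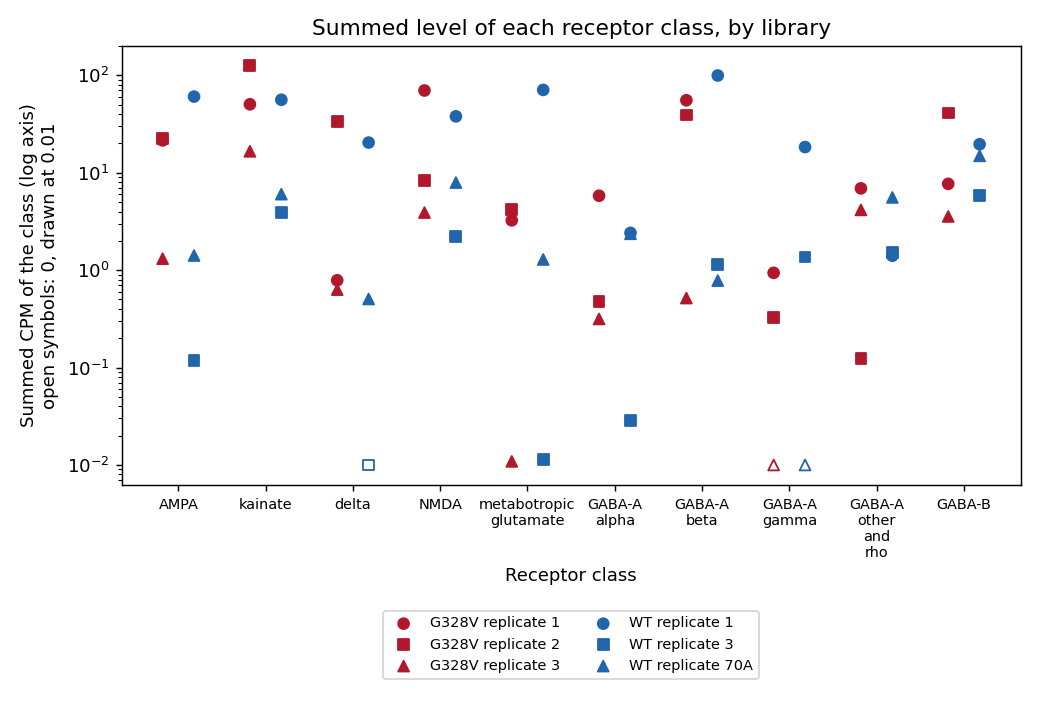
Summed CPM of each receptor class (log axis) in the 3 G328V libraries (red) and the 3 WT libraries (blue), 1 symbol per library and open symbols for 0 counts. The groups overlap in every class, and G328V replicate 3 (red triangles) and WT replicate 3 (blue squares) lie low in most.

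Seen by class, the kainate genes summed to 50.4, 125 and 16.6 CPM in G328V replicates 1, 2 and 3 and to 56.1, 3.93 and 6.03 CPM in WT replicates 1, 3 and 70A. AMPA genes summed to 21.5, 22.3 and 1.31 CPM and to 60.5, 0.119 and 1.41 CPM in the same order. Metabotropic genes summed to 3.25, 4.16 and 0.0109 CPM in G328V and to 70.8, 0.0114 and 1.29 CPM in WT. The groups overlapped in all 3 classes, and WT replicate 3 was below every G328V library for AMPA and kainate genes. WT replicate 3 had 2.22 CPM of NMDA and 5.78 CPM of GABA-B genes, and 0 of delta genes. The set of leading genes differed too. Per kilobase, Grik5 led in G328V replicates 2 and 3, and Gabbr1 in WT replicates 3 and 70A. Grin1 gave 19.0% of the summed level per kilobase in G328V replicate 1, and Grm5 and Gria3 gave 13.2% and 11.3% in WT replicate 1.

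**Figure D3:**
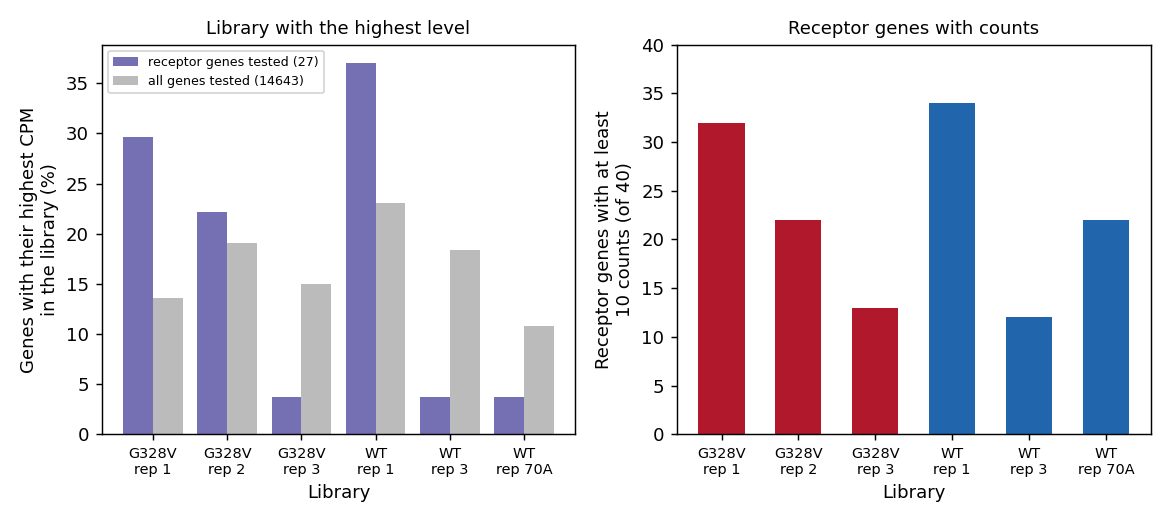
Left, the percentage of the 27 receptor genes tested (purple) and of all 14643 genes tested (grey) that had their highest CPM in each library. Right, the number of the 40 receptor genes with at least 10 counts in each library (red, G328V; blue, WT). WT replicate 1 and G328V replicate 1 hold the highest level of 37% and 29.6% of the receptor genes tested, against 23.1% and 13.6% of all genes.

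WT replicate 1 had the highest level of 10 of the 27 members tested, G328V replicate 1 of 8 and G328V replicate 2 of 6, and the other 3 libraries of 1 each. Oligodendrocyte precursor markers (7 measured) summed to 1134 CPM in WT replicate 1, with Olig1 and Olig2 at 615 and 416 CPM, against 19.2 to 240.0 CPM in G328V and 50.65 and 107 CPM in the other WT libraries. Nkx2-2 and Bcas1 were also highest in WT replicate 1, at 35.65 and 53.7 CPM. The other markers of that list were low there, with Pdgfra at 9.65, Cspg4 at 3.275 and Sox10 at 0.0569 CPM. They reached 158 CPM in G328V replicate 2 (Pdgfra) and 61.9 and 65.2 CPM in G328V replicate 1 (Cspg4 and Sox10). Olig2 did not exceed 0.938 CPM outside WT replicate 1. In that library Fabp7, a radial glia marker, was at 1313 CPM, and neuron markers summed to 237.5 CPM. Neuron markers summed to 311 CPM in WT replicate 3, mostly from Nefl at 274 CPM, although that library had the fewest receptor genes. The part of these cell types in the receptor levels was not tested. The median over the 27 members of the spread within groups (SD of log2 CPM with a prior of 2 counts) was 3.55, against 0.67 for all genes tested and 1.13 for the 8250 genes whose mean level lay in the range of the members, 0.0855 to 31.4 CPM. It reached 6.01 for Gria3, and was smallest for Grin2d and Gabra3, at 0.92 and 0.99.

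Between G328V and WT, no receptor gene passed the test. The same edgeR fit did not call Xist either (log2 difference 9.72, adjusted p = 0.254), although its groups did not overlap. The lack of a call therefore does not show that a gene was unchanged. Of the 40 members, 27 passed the filter on low counts and 13 did not, and no statement on the 27 covers the 13, among them Grm5 and Gabrg1. Positive log2 differences were found in 15 and negative in 12, and their median was 0.40, beside -0.0039 over all genes tested, of which 49.7% were positive. With edgeR 0 of the 27 had an FDR under 0.05 and 1 an unadjusted p under 0.05, with a smallest adjusted p of 0.997, while 0% of all 14643 genes were called. DESeq2 and limma-voom also called 0 members, with 2 (Gabra3 and Gria4) and 0 of the 27 at an unadjusted p under 0.05. DESeq2 gave no adjusted p for 6 of the 27, Grin1 among them, and it called 1.05% of the genes for which it gave one. Glutamate receptor genes had 10 positive and 8 negative differences, and GABA receptor genes 5 and 4. When each library was left out in turn, 16 of the 27 differences took both signs. Among the 11 that kept their sign were those of Gria1, Gria2, Gria4, Grik4, Grik5, Grin1, Grin2b, Grm7, Gabra3 and Gabrg3. Without WT replicate 1 the median was 2.46, with 23 of 28 members positive. Without WT replicate 3 it was -0.72, with 15 of 31 positive. The filter on low counts was applied anew in these fits, so their medians do not cover the same members as the 0.40.

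**Figure D4:**
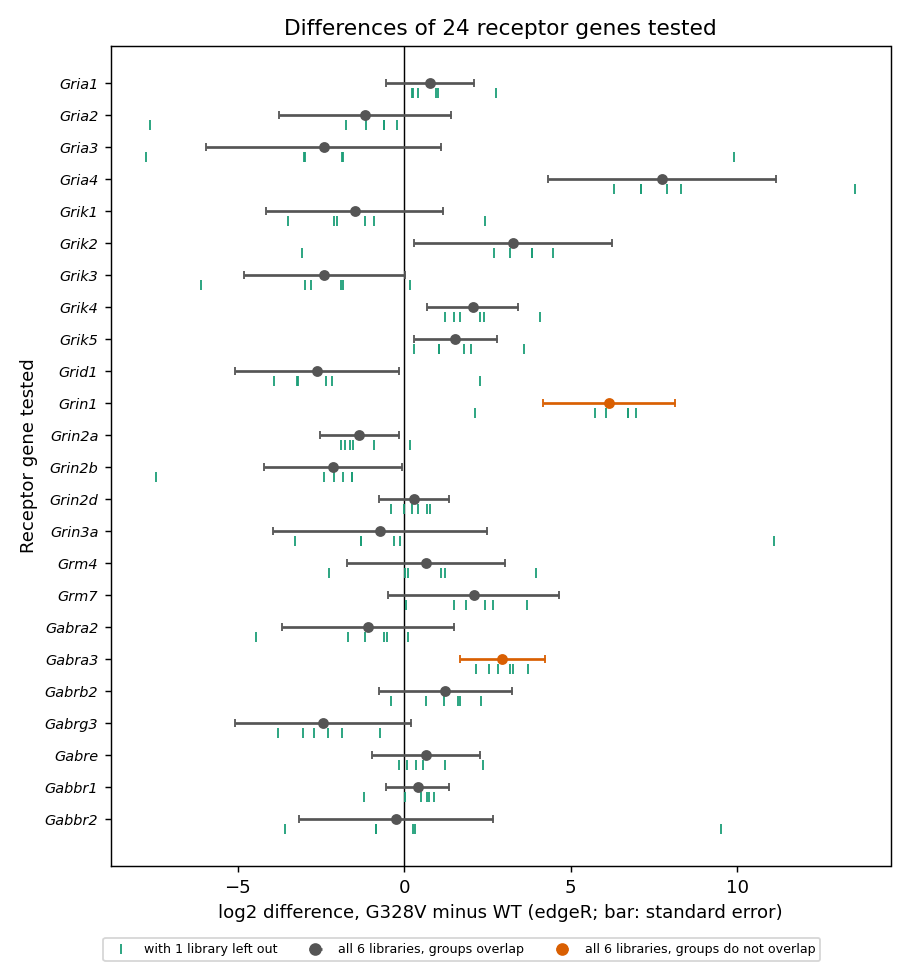
log2 difference (G328V minus WT, edgeR) of 24 receptor genes tested, as a point with its standard error, with green marks for the values when 1 library is left out. Grin1 and Gabra3 (orange) are the 2 genes whose groups do not overlap, and the green marks of 14 of these genes lie on both sides of 0.

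Other genes of the 2 transmitter systems were read from 3 lists. Of 31 genes for auxiliary and anchoring proteins of glutamate receptors, 26 were tested, 13 were higher and 13 lower in estimate, and 0 passed edgeR's FDR. An unadjusted p under 0.05 was found for 4 of them, 1 higher (Cacng3, for a transmembrane AMPA receptor regulatory protein, named after its values were seen) and 3 lower, where 1.88% and 2.17% of all genes tested had such a p in these directions. Homer3, a scaffold that binds group I metabotropic receptors, measured 31.0, 32.4 and 25.6 CPM across G328V against 35.0, 67.0 and 56.1 CPM across WT. Adarb1, the editing enzyme that recodes Gria2 mRNA, measured 66.2, 45.15 and 48.6 CPM across G328V against 66.5, 155 and 89.8 CPM across WT. The groups did not overlap for either gene, although WT replicate 1 lay close to G328V, and the log2 differences were -0.83 and -0.96 (SE 0.32 and 0.38, unadjusted p = 0.0392 and 0.0422, adjusted p = 0.997 for both by edgeR, 0.519 to 1.0 and 0.614 to 1.0 over the alternatives). Shank3, a postsynaptic scaffold, measured 4.01, 23.6 and 11 CPM across G328V against 17.5, 108.5 and 49.7 CPM across WT, with overlap. Shisa6, an AMPA receptor partner named after its values were seen, was the third gene of this list whose groups did not overlap, with 0.0117, 10.2 and 3.52 CPM across G328V against 115, 48.7 and 36 CPM across WT. All 3 such genes were lower in G328V, where 4.45% of all genes tested were.

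Genes of glutamate supply and uptake (11 listed, 10 tested) held 3 positive and 7 negative differences, none with an unadjusted p under 0.05. Slc17a8, a vesicular glutamate transporter, and Slc1a1, a neuronal uptake carrier, had log2 differences of 1.25 and -2.12 (SE 1.13 and 2.47). Of 17 genes of GABA synthesis, transport and anchoring, 12 were tested, with 4 positive and 8 negative differences and none with such a p. Slc12a2, the chloride importer that makes GABA depolarising in young cells, measured 156, 109 and 343 CPM across G328V against 204, 637 and 337 CPM across WT, with a log2 difference of -0.95 (SE 0.59). Slc6a11, a GABA uptake carrier, reached 16.8 CPM in WT replicate 1 and stayed within 0.196 CPM elsewhere, and its log2 difference of -5.49 turned to 7.34 without that library. Dbi, which encodes a peptide that binds GABA-A receptors, reached 441 CPM in WT replicate 1 and lay between 128 and 192 CPM elsewhere, with a log2 difference of -0.70 (SE 0.48), and -0.05 without that library.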

How the data were processed

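The authors deposited an HTSeq table of raw whole-number counts per gene symbol and a Cufflinks table of estimated counts of fragments. Per the submitters' processing notes the build was mm10 and FastQC 0.11.3, TopHat2 2.0.13 and Bowtie2 2.2.1 were used. The roles of these tools, the counting settings and the annotation were not stated. Per the labels' protocols, ribosomal RNA was depleted and stranded paired-end libraries were read. The HTSeq counts hold a median of 1.954 to 1.965 counts per fragment, so counts are not independent molecules. No 2 libraries were near-duplicates (smallest chi-square per degree of freedom 1238).

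G328V was compared with WT by edgeR 4.0.16 under R 4.3.3, using TMM scaling, filterByExpr (minimum count 10) and the robust legacy quasi-likelihood fit, with Benjamini-Hochberg adjustment over 14643 genes and a threshold of 0.05. The series design calls the samples biological replicates but no label names an animal, so a p-value here rests on the spread of these cultures alone. DESeq2 1.42.0, limma 3.58.1 (voom), other scalings, filters, the Cufflinks table rounded to whole numbers, and each library left out were alternatives. The fits were tested on simulated data. CPM use TMM-scaled totals, and levels per kilobase use GENCODE vM21 exon unions. Each SE is the absolute log2 difference divided by the square root of edgeR's F statistic, and is not an error given by the fit. Members and lists were chosen with earlier results of these data known. Full values are given for the 2 highest members of each class, members with an unadjusted p under 0.05 or groups without overlap, and up to 3 genes per pathway list by smallest p. Receptor symbols present only in the Cufflinks table were not tested in the comparison. Some genes that fall under this rule are not reported here by name but are included in the counts, medians and sums.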

Additional observations from a re-analysis of the deposited data

How the results depend on the processing

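Counts of calls: edgeR's 0 genes and 0 members were also found in the other edgeR and limma-voom settings and without each library (0 to 0). DESeq2 called 173 genes and 0 members. It gave a p for 16521 genes and for 29 of the 40 members. Of these, 1149 genes and 3 members had an unadjusted p under 0.05, against 594 of 14643 genes and 1 of 27 members by edgeR. DESeq2 without WT replicate 1, chosen after the data were seen, called 727 genes and 3 members (Gabra3, Grik4 and Grik5). In that fit 2100 of 17038 genes and 8 of 32 members had an unadjusted p under 0.05. The median over the 27 members tested was 0.40. It was -0.21 with no count filter and -0.24 with DESeq2, both over all 40 members (0.37 with DESeq2 over the same 27). When each library was left out it was -0.72 to 2.46, over the 28 to 32 members that passed the filter in each fit. These medians thus do not compare the same members. Replicates 1 and 3 occur in both groups and the labels do not say what the number marks (correlation of deviations 0.188 and 0.228 for the 2 pairs), so no pairing was assumed. With the replicate block on these 4 libraries the median was -0.54 over 31 members, and 0 genes and 0 members were called. In that fit Gabbr1, Gabra2, Grid1, Grm4 and Slc1a1 turned to -0.97, 0.48, 0.13, -1.68 and 0.82. With limma-voom Gabbr1, Gabbr2, Gria3, Grid1 and Slc6a11 turned to -0.34, 2.22, 0.95, 1.55 and 0.14. Leaving out each library gave ranges that crossed 0: -1.20 to 0.88 for Gabbr1, -3.59 to 9.51 for Gabbr2, -4.46 to 0.10 for Gabra2, -0.41 to 2.31 for Gabrb2, -0.15 to 2.36 for Gabre, -7.74 to 9.91 for Gria3, -3.92 to 2.27 for Grid1, -1.90 to 0.18 for Grin2a, -2.26 to 3.94 for Grm4, -3.18 to 2.58 for Slc1a1 and -6.09 to 7.34 for Slc6a11. The causes were not tested. Where the libraries left in a group hold 0 or 1 counts, as for Gria3, Gria4 and Gabbr2 without WT replicate 1, the fitted size is not a measured value. Depth limits the members with few counts: those at 0 were not detectable at this depth.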

Other observations

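The Cufflinks table also lists Grin3b, a glycine-binding NMDA subunit gene, at 93, 39 and 41 fragments in G328V replicates 1, 2 and 3 and at 42, 86 and 39 fragments in WT replicates 1, 3 and 70A. Its levels were similar in range in both groups, and 32.1% of its exon bases are shared with Tmem259 on the opposite strand, and whether counting used the strand was not stated. Gabrb1 was at 6 fragments over all libraries and Gabrr1 at 1. Gabra6, Gabrp and Grm2 are listed at 0 in all 6.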
